A study of Homo sapiens with 9 samples.

Results

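The 51 genes described here lie on chromosome 17, are expressed in nearly every cell type, and mostly encode subunits of large protein complexes or parts of the basic cell machinery. They were given as a list of 51 symbols out of the 60199 in a table of raw read counts. All 51 passed the filter on low counts, out of 15717 genes tested, and the lowest count of any of them in any library was 232. The list was chosen with the higher level of chromosome 17 genes in M1B26 than in CT and MC26 already known. The members were thus selected on their log2 fold changes in the 2 contrasts that involve M1B26, which are given as a description. Calls made in them are counted beside the share over all genes and support nothing. The contrast of MC26 with CT did not select the members and was tested gene by gene, although it shares the CT libraries.

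Poly-A RNA was sequenced from 9 cultures of MCF10A derivatives, 3 for each of 3 lines. MCF10A is an immortalised, nonmalignant human mammary epithelial line with CDKN2A deleted and MYC amplified, and all 3 lines share this origin. CT was the untreated parental line, described as not transformed. MC26 came from unsorted MCF10A cells held for a long time in BMP2 and IL6. M1B26 came from the fraction of MCF10A sorted on BMPR1B, a receptor for BMP2. These cells were held in the same factors and then expanded from 3 clones picked in soft agar. Each line is thus 1 derivation, and the sort, the cloning and the cytokines cannot be told apart in M1B26. The study's design text calls the 3 cultures of a line independent, and no batch is given. The p-values below therefore measure the spread between cultures of one derived line.

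A cell that gains a copy of a chromosome usually transcribes most of its genes more, roughly in step with the copies. Subunits of one complex are encoded on many chromosomes, so such a gain changes some subunits and leaves their partners at the old dose, and subunits made in excess are often degraded as proteins. Genes of this kind tend to have broad promoters rich in CpG dinucleotides and short of TATA boxes. No DNA was measured in these samples. The value of 3 copies against 2, a 1.5-fold change or 0.585 on the log2 scale, serves below as an arithmetic reference and not as a measured copy number.

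Total counts ran from 21425118 to 80076597 per library, with CT replicate 2 the shallowest and the other 8 at or above 38585395. Levels are given as CPM, the share of a library's counts scaled to a common library size by the trimmed mean of M values (TMM). The marker sums in this paragraph used total counts without these scaling factors. The summed level of 5 epithelial markers was 8642 to 10380 CPM in CT, 11960 to 14350 in MC26 and 7946 to 8711 in M1B26. Single markers of the 5 moved in different directions. In MC26 and M1B26 against CT, CDH1 had log2 fold changes of -0.91 and -0.79, and TP63 of 1.289 and 1.305. KRT6A had 1.67 and 0.62, KRT5 -0.07 and -0.42, and KRT18 -0.29 and 0.03. The summed level of 8 markers of other cell types was between 43.0 and 74.5 CPM in every library, although single markers varied more. On chromosome 17, CD68 had log2 fold changes against CT of 1.31 in MC26 and 1.56 in M1B26, and PECAM1 of -4.21 and -2.45. COL1A1 had 0.32 and 0.98. On other chromosomes, DCN had -0.34 and -1.05, neither of them called, and ran from 5.31 to 46.9 CPM over the libraries. PDGFRB had -0.54 and -0.62, at no more than 0.84 CPM in any library. The part of these markers in the results below was not tested. In every library CD3E had 0 counts and PTPRC and VWF at most 3. In bulk RNA, more cells with a transcript and more transcript per cell cannot be told apart.

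The members were on balance higher in M1B26 than in CT, and they did not move as a block. The median log2 fold change over the 51 genes was 0.53 (1.45-fold), with quartiles of 0.24 and 0.73 and a range from -0.34 to 1.19. The median standard error (SE) of a single gene was 0.072, whereas the SD across genes was 0.33, and 0.32 after subtraction of the part that the errors would give. The spread between genes was thus 4.59 times the typical error of a gene. Without CT replicate 2 the median was 0.50 and the SD 0.32.

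Set against the 1.5-fold reference, the genes divided. The 95% interval of the fold change held 0.585 for 16 genes, lay wholly below it for 22 and wholly above it for 13. It held 0 for 9 genes, and for 12 it lay between 0 and 0.585 without touching either. The edgeR call (adjusted p under 0.05) was made for 41 members in the higher direction, beside 25.2% of all genes tested, and for 1, MED1, in the lower direction, beside 23.7%. All 3 M1B26 libraries lay above all 3 CT libraries for 43 members, beside 30.0% of all genes. Since this contrast entered the choice of the list, nothing is read from these counts.

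Against MC26, the median shift in M1B26 was 0.40 (1.32-fold), with an SD of 0.28 and a range from -0.19 to 1.14. The interval held 0.585 for 18 genes and lay below it for 28. A call in the higher direction was made for 36 members, beside 21.2% of all genes, and edgeR called 0 lower, beside 18.4%. At an unadjusted p under 0.05 edgeR gave 1 lower gene, and DESeq2 called 1 lower. All M1B26 libraries lay above all MC26 libraries for 42 members, beside 27.8% of all genes. This contrast also entered the choice of the list.

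The other 800 tested chromosome 17 genes had medians of 0.47 in M1B26 against CT, 0.49 in M1B26 against MC26 and -0.01 in MC26 against CT. The remaining 14866 genes, of which 1665 had no unique position, had medians of -0.02, -0.02 and 0.00. The interquartile range in M1B26 against CT was 0.50 for the members, 0.65 for the rest of the chromosome and 0.61 for the remaining genes. The median SE of a gene was 0.072, 0.11 and 0.11 in the same order, so the members were also the more precisely measured genes. The difference between the ranges was not tested.

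Single libraries gave the same picture. Relative to the mean of the CT libraries, the median of the 51 genes was 0.01, -0.02 and 0.01 on the log2 scale in the 3 CT libraries. It was 0.14, 0.13 and 0.11 in MC26, and 0.50, 0.49 and 0.53 in M1B26. In the M1B26 libraries, 48, 45 and 48 of the 51 genes lay above the CT mean. The share of all genes above it was not computed, and M1B26 entered the choice of the list, so nothing is read from these counts. Replicates were close, with a median SD between the 3 libraries of 0.070 in CT, 0.063 in MC26 and 0.053 in M1B26. ACTG1, cytoplasmic gamma-actin, was the most variable, with an SD of 0.38 in M1B26.

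**Figure D1:**
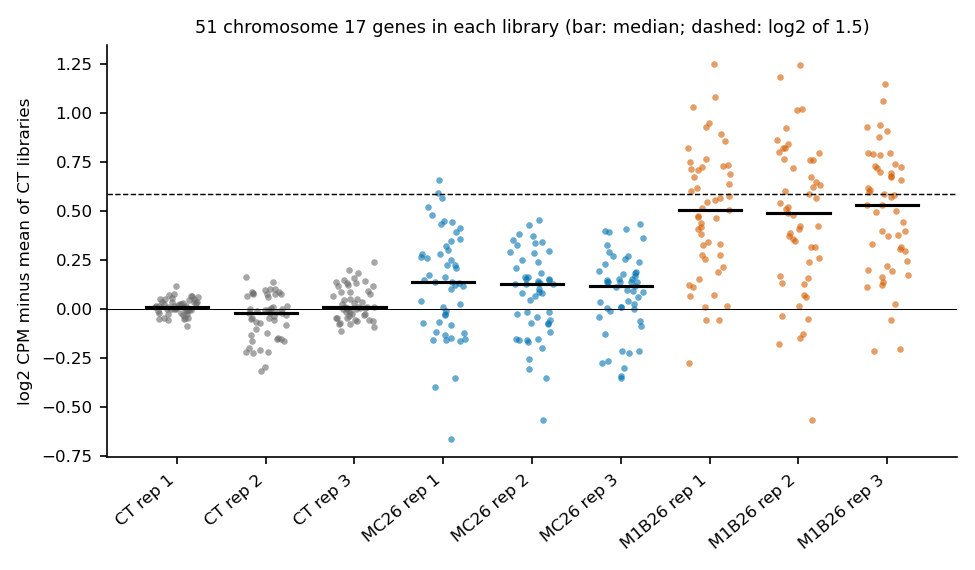
Each point is 1 of the 51 genes in 1 library, as log2 CPM minus the mean of the 3 CT libraries (y axis). Bars are medians over the genes and the dashed line is log2 of 1.5. The 3 M1B26 medians lie between 0.49 and 0.53 and those of MC26 between 0.11 and 0.14, while single genes in M1B26 run from below 0 to above 1.

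The genes at the top of the range lay above the reference, and those at the bottom lay at the level of CT or below it. NME1 (chr17:51153559-51162428, plus strand, GRCh38), a nucleoside diphosphate kinase, had the highest value of the list in M1B26 against CT, a log2 fold change of 1.19 (SE 0.073). Its level was 262.5, 243.5 and 266.7 CPM in CT, 264.3, 254.3 and 277.6 in MC26, and 611.9, 610.3 and 536.9 in M1B26. CT and MC26 overlapped, and every M1B26 library stood well above both. The neighbouring paralog NME2, which is not a member, had a log2 fold change of 1.33. The annotated readthrough NME1-NME2 covers 47.0% of the exon bases of NME1, so reads of the pair may be assigned unevenly.

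PSMB3 (chr17:38752741-38764225, plus strand), a beta subunit of the proteasome core, was next at 1.13 (SE 0.078). It stood at 123.7, 107.0 and 126.4 CPM in CT, 161.2, 145.0 and 148.9 in MC26, and 251.1, 269.8 and 262.8 in M1B26. The 3 lines did not overlap, with MC26 between the others. MED31 (chr17:6643311-6651634, minus strand), a small subunit of Mediator, the bridge between transcription factors and RNA polymerase II, followed at 1.002 (SE 0.087). Its levels were low, at 9.39, 10.13 and 9.15 CPM in CT, 11.17, 10.59 and 9.58 in MC26, and 19.52, 19.36 and 18.34 in M1B26. Exons of TXNDC17 on the opposite strand cover 75.6% of the exon bases of MED31, and TXNDC17 itself had a log2 fold change of 0.84. Whether the counting used strand is not stated, so reads of the pair cannot be told apart.

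PFN1 (chr17:4945652-4949061, minus strand), the actin-binding protein profilin, had a log2 fold change of 0.94 (SE 0.11). It was measured at 1077, 798.3 and 1140 CPM in CT, 1270, 1268 and 1215 in MC26, and 1891, 2010 and 1866 in M1B26. GPS1 (chr17:82050691-82057470, plus strand), a subunit of the COP9 signalosome, stood at 0.90 (SE 0.11), with 95.7, 74.8 and 108.5 CPM in CT, 111.8, 102.9 and 105.3 in MC26, and 177.8, 174.5 and 169.2 in M1B26. For both genes CT replicate 2 was the lowest library, and M1B26 lay above all others.

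At the other end, MED1 (chr17:39404285-39451272, minus strand), the large Mediator subunit that nuclear receptors bind, was the only member with all 3 M1B26 libraries below all 3 CT libraries, at -0.34 (SE 0.088). Its level was 103.7, 112.2 and 101.6 CPM in CT, 80.2, 82.7 and 82.9 in MC26, and 87.4, 71.4 and 91.0 in M1B26. MC26 and M1B26 overlapped, both below CT. TBCD (chr17:82752042-82945914, plus strand), a cofactor for folding of beta-tubulin, had a log2 fold change of -0.11 (SE 0.079). It was at 100.8, 92.3 and 108.9 CPM in CT, 91.6, 81.1 and 86.0 in MC26, and 96.5, 97.0 and 87.0 in M1B26, so that CT and M1B26 overlapped.

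SRSF1 (chr17:58000919-58007346, minus strand), an SR protein of splicing, stood at -0.03 (SE 0.060). It was at 428.5, 463.4 and 424.4 CPM in CT, 476.7, 484.1 and 474.7 in MC26, and 420.9, 443.5 and 422.3 in M1B26. POLR2A (chr17:7484366-7514616, plus strand), the largest subunit of RNA polymerase II, stood at 0.00 (SE 0.087), with 316.6, 277.7 and 335.9 CPM in CT, 361.1, 357.0 and 340.3 in MC26, and 336.5, 278.9 and 314.8 in M1B26. PRPF8 (chr17:1650629-1684867, minus strand), the central protein of the spliceosome, stood at 0.03 (SE 0.085). Its CPM was 568.8, 543.8 and 594.5 in CT, 507.4, 510.4 and 521.1 in MC26, and 594.6, 502.6 and 641.4 in M1B26. For these 3 genes M1B26 overlapped CT, and the intervals of the fold change held 0 and lay below 0.585. Over the 20 alternative analyses the value ran from -0.09 to 0.17 for POLR2A, -0.07 to 0.20 for PRPF8 and -0.13 to 0.04 for SRSF1. It ran from -0.20 to 0.08 for TBCD and from -0.44 to -0.15 for MED1. POLR2A and PRPF8 each gained a call in 2 alternatives and TBCD in 1, while MED1 lost its call in 1. POLR2A became 0.17 with offsets for length and GC content, whose parts were not separated.

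**Figure D2:**
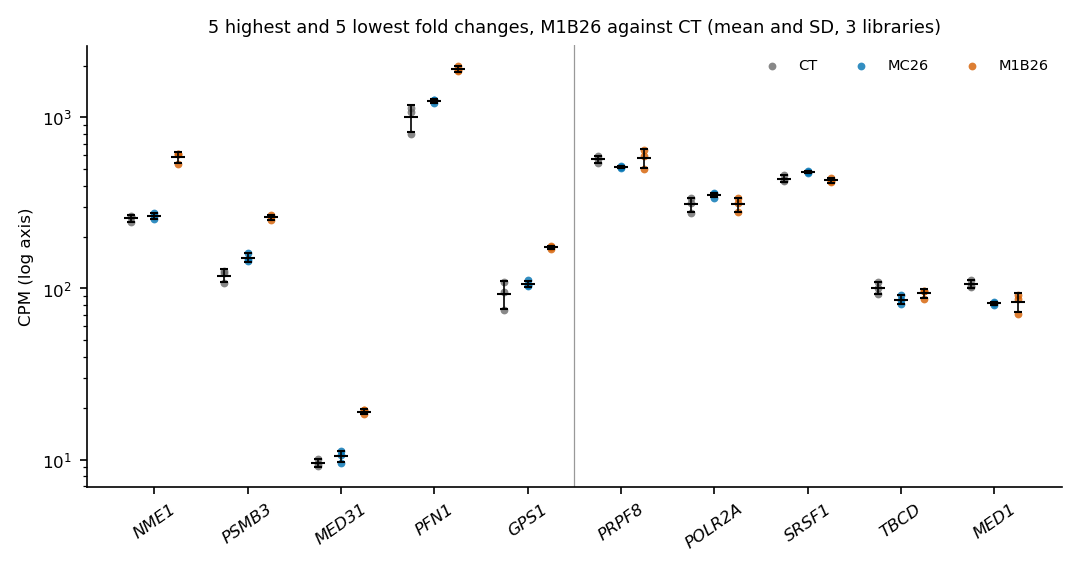
CPM (log axis) of the 5 members with the highest log2 fold change in M1B26 against CT, at left, and the 5 with the lowest, at right. Points are the 3 libraries of each line, and bars are mean and SD. The M1B26 points of the left genes stand clear of CT, from 18.34 CPM for MED31 up to 2010 CPM for PFN1, whereas at right M1B26 overlaps CT except for MED1.

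Promoters are shown for the 2 highest and the 2 lowest genes, so that genes of one chromosome with opposite shifts can be read side by side. Each sequence is the 250 bases before the RefSeq start on the gene's strand in GRCh38.p14, at chr17:51153309-51153558 (plus) for NME1, chr17:38752491-38752740 (plus) for PSMB3, chr17:39451264-39451513 (minus) for MED1 and chr17:82751815-82752064 (plus) for TBCD. Capitals mark GGGCGG, the core of the GC box, or its reverse complement CCGCCC.
NME1: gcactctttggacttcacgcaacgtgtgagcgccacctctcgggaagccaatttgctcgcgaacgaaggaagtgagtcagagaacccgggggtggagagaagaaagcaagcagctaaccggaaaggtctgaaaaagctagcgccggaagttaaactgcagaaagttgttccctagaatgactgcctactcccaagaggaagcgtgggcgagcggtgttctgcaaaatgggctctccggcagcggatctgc
PSMB3: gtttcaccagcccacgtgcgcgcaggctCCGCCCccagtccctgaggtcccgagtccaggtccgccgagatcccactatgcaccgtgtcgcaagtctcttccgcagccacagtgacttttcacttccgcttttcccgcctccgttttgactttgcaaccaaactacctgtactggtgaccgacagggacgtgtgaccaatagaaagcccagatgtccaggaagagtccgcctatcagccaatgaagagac
MED1: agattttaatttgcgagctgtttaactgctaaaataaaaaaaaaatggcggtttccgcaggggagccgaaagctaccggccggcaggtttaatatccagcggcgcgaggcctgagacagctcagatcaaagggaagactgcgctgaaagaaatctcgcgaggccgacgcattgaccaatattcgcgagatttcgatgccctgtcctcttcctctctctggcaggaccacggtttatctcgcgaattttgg
TBCD: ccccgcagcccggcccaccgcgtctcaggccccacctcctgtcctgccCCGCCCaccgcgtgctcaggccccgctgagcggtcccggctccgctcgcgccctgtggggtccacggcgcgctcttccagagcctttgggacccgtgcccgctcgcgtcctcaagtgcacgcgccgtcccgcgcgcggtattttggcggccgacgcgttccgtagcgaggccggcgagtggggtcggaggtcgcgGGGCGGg
The NME1 and MED1 windows hold 0 GC boxes, the PSMB3 window 1 and the TBCD window 2. The relation of GC boxes with the shift was not tested. The GC content was 55.2% for NME1, 58.0% for PSMB3, 50.4% for MED1 and 76.8% for TBCD. RefSeq windows were found for 45 of the 51 members. GGGCGG was present on either strand in 27 of them (60.0%, beside 42.6% of all 35116 windows), CCGGAAG, an ETS-type site, in 8 (17.8% beside 8.5%), CCAAT in 19 (42.2% beside 32.0%) and TATAAA in 1 (2.2% beside 10.7%). None of these 4 motifs contains another. The median window of a member held 21 CpG dinucleotides, beside 11 for all windows, and had a GC content of 61.2%, beside 58.0%. These are matches of letters and say nothing of binding.

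Along the chromosome the shift was seen from end to end. In successive windows of 20 Mb from the short-arm end, the members' medians in M1B26 against CT were 0.57 (16 genes), 0.38 (8), 0.47 (14) and 0.39 (9), and 0.70 for the 4 genes beyond 80 Mb. The other chromosome 17 genes of the same windows had medians of 0.41, 0.41, 0.50, 0.49 and 0.66. No window of the chromosome had a median near 0, and within every window single members ranged widely. MED1 at -0.34 and PSMB3 at 1.13, for example, both lie in the second window. In MC26 against CT, the members' medians of the 5 windows ran from 0.04 to 0.21.

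**Figure D3:**
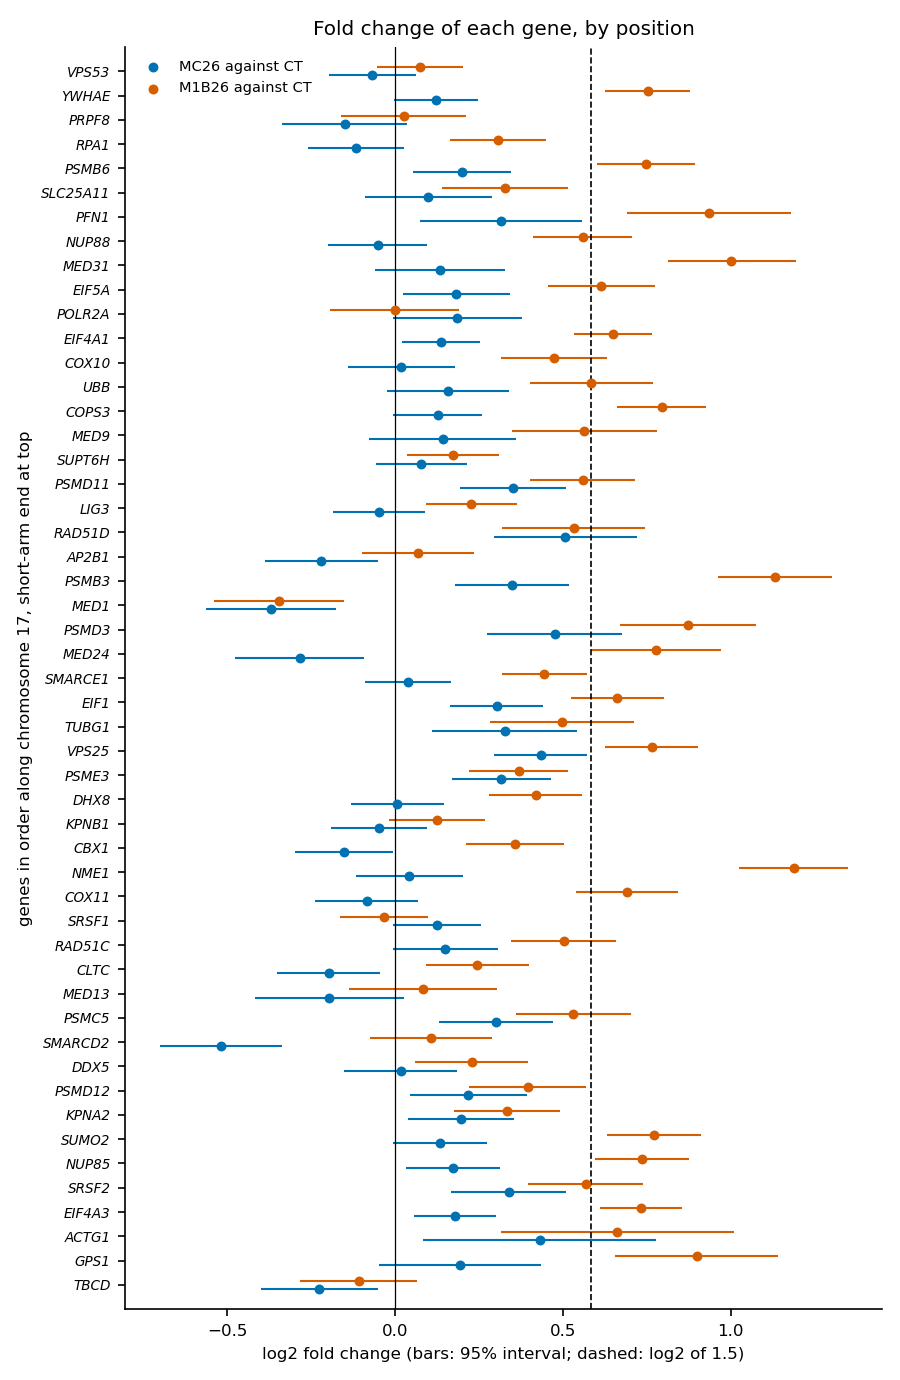
Log2 fold change (x axis) of each of the 51 genes, ordered by position on chromosome 17 from the short-arm end (top), for MC26 against CT (blue) and M1B26 against CT (orange). Bars are 95% intervals, the solid line is 0 and the dashed line log2 of 1.5. High and low genes alternate along the chromosome, from MED1 at -0.34 to NME1 at 1.19.

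The proteasome, which degrades proteins marked with ubiquitin, was the group with the most members, 7, and every one of them had a positive fold change in both treated lines. In M1B26 against CT, the core subunits PSMB3 and PSMB6 had log2 fold changes of 1.13 and 0.75, and the base ATPase PSMC5 0.53. The lid subunits PSMD3, PSMD11 and PSMD12 had 0.87, 0.56 and 0.39, and the activator PSME3 0.37. Of 30 proteasome genes on other chromosomes, 21 were called higher and 2 lower in M1B26 against CT, beside 25.2% and 23.7% of all genes. Their median was 0.29, beside 0.56 for the 7 members. In MC26 against CT, all 7 members and 21 of the 30 partners were called higher and 1 partner lower, beside 18.8% and 19.9% of all genes, with medians of 0.32 and 0.24. The 7 values in MC26 stayed positive in all 20 alternative analyses, although PSMB6 lost its call in 10 of them, PSMD12 in 11 and PSMC5 in 1.

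Transcription genes were divided. POLR2A at 0.00 and SUPT6H, a histone chaperone of elongation, at 0.17 were both under the median of 15 partners elsewhere, 0.24. SUPT4H1, of the same group and on chromosome 17 but not a member, had 0.92. Among Mediator subunits, MED31 had 1.002, MED24 0.78, MED9 0.56, MED13 0.08 and MED1 -0.34, so that this one complex spanned nearly the whole range of the 51 genes. MED11, also on chromosome 17 but not a member, had 0.63. The 26 Mediator partners elsewhere had a median of 0.19, with 12 called higher and 4 lower, beside 25.2% and 23.7% of all genes. One partner, CDK19, a cyclin-dependent kinase of the Mediator kinase module (chr6:110609978-110815958), was lower in M1B26 than in CT, with a log2 fold change of -1.25 (SE 0.10, edgeR adjusted p = 3.73e-06). Its value in MC26 against CT was -0.84.

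The chromatin and DNA repair groups were mostly at moderate values. SMARCE1 and SMARCD2, subunits of the SWI/SNF remodelling complex, had 0.45 and 0.11. Their 22 partners had a median of -0.15 with 10 called lower and 3 higher, beside 23.7% and 25.2% of all genes. CBX1, a heterochromatin protein, had 0.36, the ubiquitin precursor UBB 0.58 and the modifier SUMO2 0.77, beside a median of 0.23 over 7 partners. RAD51C and RAD51D, which act in repair by homologous recombination, had 0.50 and 0.53. The single-strand binding subunit RPA1 had 0.31 and the ligase LIG3 0.23. The 9 repair partners had a median of 0.25.

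The 4 genes of translation lay close together. EIF1, EIF4A1, EIF4A3 and EIF5A, which act in start codon choice, unwinding of mRNA, the exon junction complex and peptide bond formation, had 0.66, 0.65, 0.73 and 0.61. Their 15 partners elsewhere had a median of 0.01, with 2 called higher and 3 lower, beside 25.2% and 23.7% of all genes. EIF4A1 is contained whole in the annotated readthrough SENP3-EIF4A1. The 5 splicing genes and RNA helicases ran from SRSF2 at 0.57 through the helicases DHX8 at 0.42 and DDX5 at 0.23 to PRPF8 at 0.03 and SRSF1 at -0.03. Their 19 partners elsewhere had a median of -0.01, and EFTUD2, a spliceosome GTPase on chromosome 17 that is not a member, had 0.72.

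Among the remaining groups, COPS3 and GPS1 of the COP9 signalosome, which removes NEDD8 from ubiquitin ligases, had 0.79 and 0.90, beside 0.19 for 8 partners. Clathrin heavy chain CLTC and the adaptor subunit AP2B1, both of endocytic coats, had 0.24 and 0.07, with a median of 0.18 in 6 partners. VPS25, of the ESCRT-II sorting complex, had 0.76, and VPS53, of the GARP tether, 0.07, beside -0.29 in 5 partners. SNF8, of the same group and on chromosome 17 but not a member, had 0.67. The nuclear pore proteins NUP85 and NUP88 had 0.74 and 0.56 and the import receptors KPNA2 and KPNB1 0.33 and 0.13, beside -0.05 in 16 partners. The cytoskeletal and adaptor genes YWHAE, a 14-3-3 protein, ACTG1 and the gamma-tubulin TUBG1 had 0.75, 0.66 and 0.50, next to PFN1 and TBCD above. Their 17 partners had a median of 0.12, and SFN, the 14-3-3 sigma protein of epithelia (chr1:26863149-26864456), was called higher in M1B26 than in CT, with a log2 fold change of 1.09 (SE 0.14, edgeR adjusted p = 9.72e-05). The assembly factors of cytochrome oxidase COX10 and COX11 had 0.47 and 0.69 and the mitochondrial carrier SLC25A11 0.33, next to NME1, beside 0.25 in 18 partners. SCO1, of this group and on chromosome 17 but not a member, had 0.58.

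Over all 14 groups, 213 partner genes on other chromosomes were tested. Their median was 0.12 in M1B26 against CT, with 82 called higher and 33 lower, beside 25.2% and 23.7% of all genes. As a share of the partners, 38.5% were called higher. In MC26 against CT their median was 0.11, with 63 higher and 21 lower, beside 18.8% and 19.9% of all genes. In M1B26 against MC26 it was 0.00, with 42 higher and 44 lower, close to the 21.2% and 18.4% of all genes. The members' median lay above that of the partners in 12 of the 14 groups in M1B26 against CT, the exceptions being RNA polymerase II with elongation and the clathrin group. It lay above in 13 of 14 groups in M1B26 against MC26 and in 8 of 14 in MC26 against CT. The groups were drawn up with results of these data known, so these counts are descriptions. Members and partners also differed in transcript length. Nuclear pore members had a median of 2872 bases and their partners 5720, whereas clathrin members had 7034 and their partners 1535. Across the 213 partners, Spearman's rho of the shift in M1B26 against CT with length was -0.67. The part of length in the differences between members and partners was not tested.

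**Figure D4:**
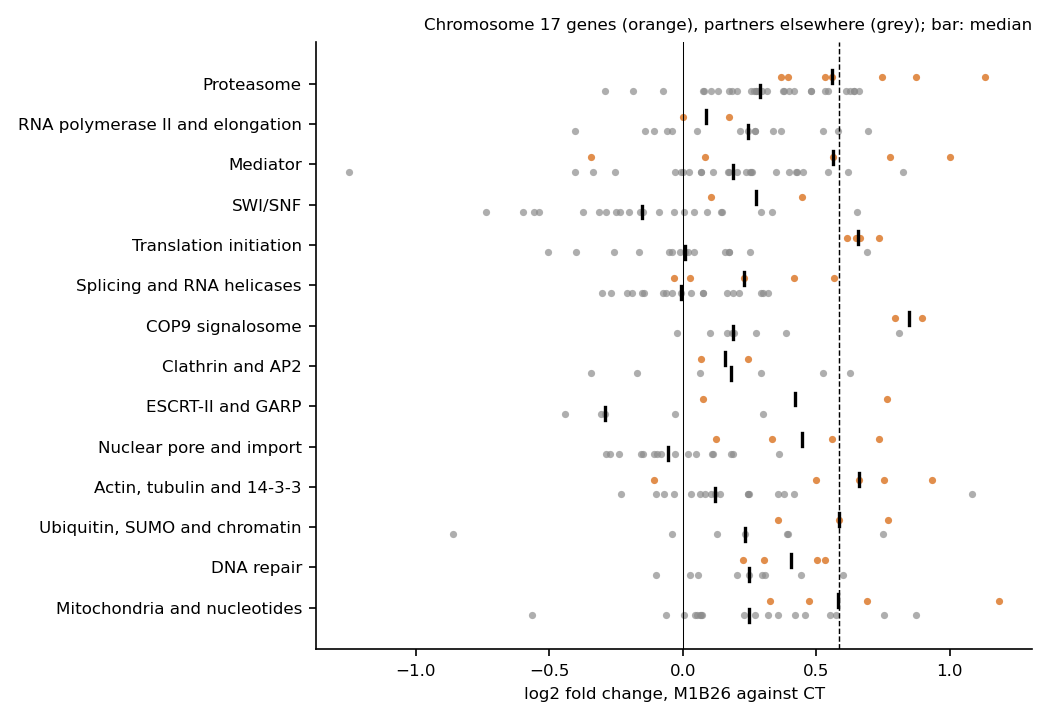
Log2 fold change in M1B26 against CT (x axis) of the members (orange) and of the partner subunits on other chromosomes (grey), by functional group. Each point is 1 gene, black bars are medians, and the dashed line is log2 of 1.5. The members' bar lies to the right of the partners' bar in 12 of 14 groups, with medians for the COP9 signalosome of 0.85 and 0.19.

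MC26 was then compared with CT, the contrast that did not choose the list. The median over the 51 genes was 0.13 (1.097-fold), with quartiles of -0.05 and 0.21, an SD of 0.22 and a range from -0.52 to 0.51. With edgeR and adjustment over all genes, 16 members were called higher, beside 18.8% of all genes tested, and 6 lower, beside 19.9%. As shares of the members these are 31.4% and 11.8%. All MC26 libraries lay above all CT libraries for 24 members, beside 24.6% of all genes, and below for 11, beside 25.8%. The counts of calls depended on scaling and single libraries. They became 10 higher and 8 lower on total counts without scaling factors, 27 and 4 with length and GC offsets, 9 and 2 without CT replicate 1, and 9 and 3 without MC26 replicate 1. The share of all genes called under each alternative was not computed, so nothing about the members is read from these changes.

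The 8 members with the smallest p in this contrast kept their calls in all 20 alternative analyses. VPS25 (chr17:42773449-42779599, plus strand) rose by 0.43 (SE 0.063, adjusted p = 0.000358), from 49.2, 48.6 and 48.2 CPM in CT to 69.9, 63.4 and 64.1 in MC26. SMARCD2 (chr17:63832081-63843065, minus strand) fell by 0.52 (SE 0.083, adjusted p = 0.000666), from 155.7, 141.1 and 149.3 CPM in CT to 93.8, 100.3 and 117.2 in MC26. These 2 genes had the smallest adjusted p of the members in this contrast and moved in opposite directions. In M1B26, VPS25 was at 81.9, 86.1 and 80.2 CPM and SMARCD2 at 156.3, 162.5 and 161.8, so that SMARCD2 was low in MC26 alone among the 3 lines. It ends 54 bases from the end of PSMC5 on the other strand, which was called higher in MC26 at 0.30.

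RAD51D (chr17:35092221-35121522, minus strand) rose by 0.51 (SE 0.097, adjusted p = 0.00204), from 16.2, 16.6 and 17.8 CPM to 26.5, 23.0 and 22.3. It stood at 26.9, 22.0 and 24.3 CPM in M1B26, which overlapped MC26. EIF1 (chr17:41688885-41692668, plus strand) rose by 0.30 (SE 0.063, adjusted p = 0.0034), from 383.8, 371.8 and 396.1 CPM to 503.2, 455.8 and 462.0. In M1B26 EIF1 was higher again, at 587.8, 611.6 and 623.9 CPM.

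The other 4 of the 8 were proteasome genes. PSMD3 (chr17:39980807-39997959, plus strand) rose by 0.48 (SE 0.092, adjusted p = 0.0021), from 195.5, 159.9 and 205.7 CPM to 280.0, 250.3 and 250.8, and was at 337.5, 338.1 and 353.5 in M1B26. PSMD11 (chr17:32444379-32483319, plus strand) rose by 0.35 (SE 0.071, adjusted p = 0.00291), from 156.1, 149.8 and 153.4 CPM to 213.8, 191.8 and 180.4, and was at 224.9, 218.2 and 233.6 in M1B26. PSME3 (chr17:42824385-42843760, plus strand) rose by 0.32 (SE 0.067, adjusted p = 0.00362), from 258.3, 251.5 and 256.1 CPM to 344.3, 310.7 and 299.2. PSME3 in M1B26, at 339.2, 317.3 and 332.0 CPM, overlapped MC26. PSMB3, whose libraries are given above, rose by 0.35 (SE 0.077, adjusted p = 0.00466).

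The remaining calls in MC26 were smaller or less stable. SRSF2 at 0.34 and MED1 at -0.37 were also called in all 20 alternatives, so that 10 of the 22 calls, 8 higher and 2 lower, did not depend on any of them. PSMC5 at 0.30, TUBG1 at 0.33, EIF4A3 at 0.18, PSMB6 at 0.20, PFN1 at 0.32, PSMD12 at 0.22, ACTG1 at 0.43 and KPNA2 at 0.20 were called higher in the main analysis and lost the call in 1 or more. MED24 at -0.28, AP2B1 at -0.22, TBCD at -0.23 and CLTC at -0.20 were called lower and did likewise. Members that were not called included NME1 at 0.04 and POLR2A at 0.19, and a missed call does not show that MC26 and CT were alike.

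Transcript length moved with the shift. The length is that of the exons of the canonical transcript. Across the 51 genes, Pearson's r of the shift with log2 length was -0.75 in M1B26 against CT and -0.48 in MC26 against CT (Spearman's rho -0.74 and -0.53), a description across genes that share libraries and normalisation. Members under 2 kb (17 genes) had a median of 0.66 in M1B26 against CT, those of 2 to 3 kb (10) 0.61, those of 3 to 5 kb (9) 0.56 and those over 5 kb (15) 0.08. The 5 lowest members were all over 5 kb, and the 5 highest were all under 2 kb.

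The same gradient was present outside the list. Other chromosome 17 genes had medians of 0.66, 0.53, 0.38 and 0.24 in the 4 classes, and genes on other chromosomes 0.18, 0.06, -0.05 and -0.21. By library, genes under 2 kb on other chromosomes had medians of 0.035, -0.075 and 0.039 relative to the CT mean in CT, and 0.197, 0.230 and 0.143 in M1B26. Genes over 5 kb on other chromosomes had -0.198, -0.256 and -0.161 in M1B26. Members under 2 kb had medians of 0.724, 0.765 and 0.673 in the M1B26 libraries, and members over 5 kb 0.122, 0.061 and 0.199. Short genes were thus high in every M1B26 library and low in CT replicate 2. With offsets for length and GC content in the fit, the members' SD in M1B26 against CT was 0.24 in place of 0.33, and the median 0.43 in place of 0.53. The part of transcript length in the spread was not tested. GC content of the transcript (r = 0.20) and mean level (r = 0.03) had weaker relations with the shift.

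**Figure D5:**
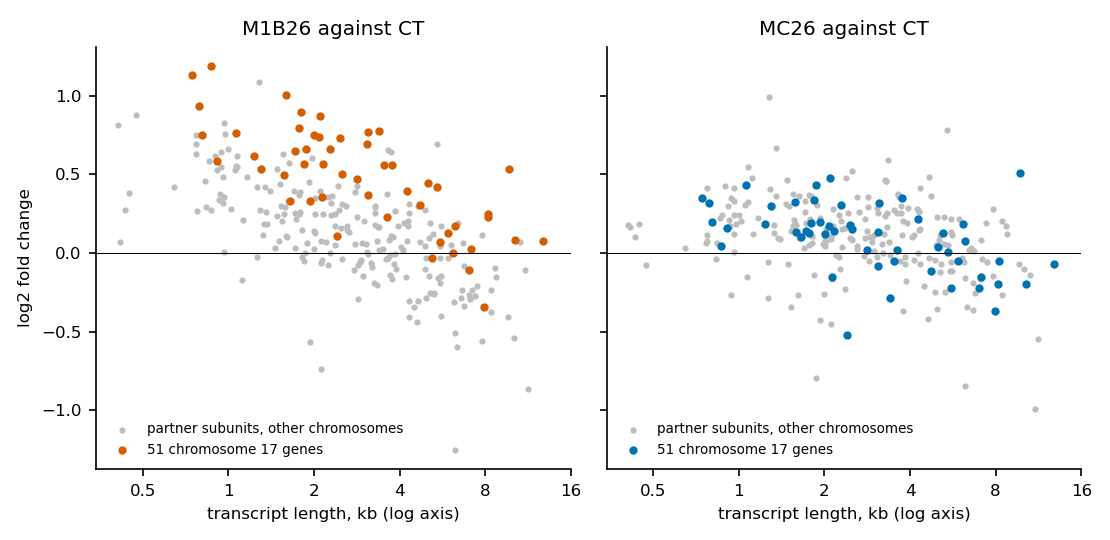
Log2 fold change (y axis) against the length of the canonical transcript in kb (log axis), for M1B26 against CT (left) and MC26 against CT (right). Coloured points are the 51 members and grey points the partner subunits on other chromosomes. At left, members over 5 kb have a median of 0.08 and those under 2 kb of 0.66, and the partners fall with length as well.

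Levels per kilobase spanned a wide range within the list. In CT the highest were ACTG1 at 1542 CPM per kb and PFN1 at 1245, and the lowest were RAD51D at 1.69 and VPS53 at 3.40. Both abundant genes (EIF4A1, 830.3 CPM per kb in CT) and scarce ones (MED31, 5.87) were among those above the reference of 0.585. Annotated exons of another gene on the same strand cover over 10% of the exon bases of 4 members, and exons on the opposite strand those of 10 members, while 27 share none. Rows of the table named after a member's pseudogenes or readthroughs held at most 1.11% of that member's counts (NME1), and at most 0.236% for any other.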

How the data were processed

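Poly-A libraries of 9 cultures were sequenced in paired-end mode. The authors deposited 1 table of unnormalised counts with a row for each gene symbol. Their methods give alignment with STAR 2.7.3a to GRCh38 and GENCODE release 33. They also name Salmon 1.1.0 for protein-coding genes, yet the table held only whole numbers and had rows for non-coding RNAs. Which program counted the reads, whether it used strand and how it treated multiply aligned reads are not given in the sources used here. The labels and the methods give different concentrations of BMP2 and IL6, and none is printed.

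Groups were taken from the sample titles. Genes passing filterByExpr (minimum count 10) were fitted in R 4.3.3 with edgeR 4.0.16, using TMM factors of 0.968 to 1.069 and a quasi-likelihood model of the 3 lines over all 9 libraries. The biological coefficient of variation was 10.4%. P-values are 2-sided and adjusted by Benjamini-Hochberg over all 15717 genes tested, with a threshold of 0.05. CPM used TMM-scaled library sizes, except for the marker sums, which used total counts. Medians per library used log2 CPM (log2 of CPM + 0.1 for the length classes). The script was tested on simulated data with known changes. DESeq2 1.42.0, other scalings, filters, a replicate block, offsets for length and GC content, and omission of each library were tried as alternatives. Positions, canonical transcript lengths and GC content came from GENCODE release 44, which placed 37430 of 60199 symbols (507 through an older symbol) with 99.26% of the counts. Promoters came from RefSeq (GRCh38.p14).

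The members, the groups of partners and the markers were chosen with earlier results of these data known. All members are named by role. Values per library are given for the 5 highest and the 5 lowest in M1B26 against CT and for the 8 smallest p in MC26 against CT, partners are named where called in M1B26 against CT with a log2 fold change of at least 1 in size, and promoters are shown for the 2 highest and 2 lowest.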

Additional observations from a re-analysis of the deposited data

Results flagged for a closer look

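For 8 members, every M1B26 library lay on the upper side of the CT mean and every MC26 library on the lower side. The share of all genes with this pattern was not computed, so nothing is read from the count. The log2 fold changes against CT were 0.075 in M1B26 and -0.067 in MC26 for VPS53, 0.31 and -0.12 for RPA1, 0.56 and -0.052 for NUP88, and 0.78 and -0.28 for MED24. They were 0.13 and -0.048 for KPNB1, 0.36 and -0.15 for CBX1, 0.24 and -0.20 for CLTC, and 0.11 and -0.52 for SMARCD2. The 2 contrasts share the CT libraries and the M1B26 values entered the choice of the genes, so the difference between the lines was not tested. MED24, CLTC and SMARCD2 were called lower in MC26 against CT, and the other 5 were not called there. KPNB1 overlapped CT in M1B26.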

How the results depend on the processing

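The members' median in M1B26 against CT stayed positive and the call count within 1.5 times of the value given, in the higher direction, under each alternative tried. With offsets for length and GC content, the members' medians were 0.15 in MC26 against CT, 0.43 in M1B26 against CT and 0.28 in M1B26 against MC26, the SD in M1B26 against CT was 0.24, and 27 members were called higher in MC26 and 2 lower in M1B26 against MC26. Partners then had medians of 0.15, 0.056 and -0.12 in that order, 109 were called higher in MC26, and 88 lower in M1B26 against MC26. POLR2A in M1B26 against CT became 0.17, and 0.171 with the replicate block. With these offsets and the replicate block together, the members' medians were 0.15, 0.43 and 0.29, the SD 0.24, with 0 members lower in M1B26 against CT and 2 against MC26. Partners had 0.15, 0.056 and -0.12, with 104 higher in MC26 and 87 lower in M1B26 against MC26. On total counts without scaling factors, the median of all genes moved by less than 0.1. Members had medians of 0.054 in MC26 and 0.44 in M1B26 against CT, with 10 higher and 8 lower in MC26 and 2 lower in M1B26, and partners had 0.035 and 0.022, with 40 and 53 higher. At an adjusted p under 0.01, which gives no new median, 8 members were higher and 2 lower in MC26. Partners were then 33 higher and 12 lower in MC26 against CT, 54 and 21 in M1B26 against CT, and 26 and 21 in M1B26 against MC26. Members called lower in MC26 numbered 3 without a filter, and those lower in M1B26 against MC26 numbered 1 with DESeq2 and 1 with only the 6 libraries compared. The cause of these changes was not tested. For no alternative, here or in the next paragraph, was the share of all genes called computed. Nothing about members or partners is therefore read from these counts.

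Same-numbered cultures of different lines did not deviate together, with correlations of -0.114 to 0.136 in 9 pairs, beside -0.129 to 0.119 in 18 pairs of other numbers, so the numbers were not taken to pair them. With the replicate number as a block, 12 members were called higher and 3 lower in MC26 against CT, and 40 and 1 in M1B26 against CT. Leaving out 1 library at a time, the members called higher and lower ran from 9 to 16 and 2 to 5 in MC26 against CT, 38 to 41 and 1 to 1 in M1B26 against CT, and 31 to 38 and 0 to 1 in M1B26 against MC26. The members' medians ran from 0.11 to 0.14, 0.50 to 0.55 and 0.35 to 0.41 in that order, and their SD from 0.20 to 0.24, 0.31 to 0.35 and 0.27 to 0.29. Partners ran from 38 to 74 higher and 14 to 20 lower in MC26 against CT, 63 to 84 and 22 to 33 in M1B26 against CT, and 28 to 53 and 28 to 57 in M1B26 against MC26, with medians of 0.11 to 0.14, 0.12 to 0.14 and -0.0094 to 0.019. Depth limits little here, since each member had at least 232 counts in every library, but with 3 cultures a line the SE of a member's fold change was about 0.07, so differences between members of that size are not resolved.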
